A study of Mus musculus with 2 samples.

Results

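Memory-like CD8 T cells were followed here in the lymph nodes of mice that had received a heart graft. They were 553 of 10063 cells kept from 2 single-cell RNA libraries, 44 of 2106 allogeneic and 509 of 7957 syngeneic cells. A cell was a member when it had at least 1 UMI (unique molecular identifier, 1 counted RNA molecule) of Cd3d, Cd3e and Cd3g together, at least 2 of Cd8a and Cd8b1, none of Cd4 or Cd79a, at least 3 of the marker genes Ccl5, Cxcr3, Eomes, Gzmm and Samd3 summed, and at most 1 of Xcl1, Lag3 and Tyrobp summed. The cells set against them were 1429 marker-low CD8 cells, 297 allogeneic and 1132 syngeneic, which passed the same limits but had a marker sum of at most 1. The members were thus chosen by their own UMIs of these genes, so differences between members and marker-low cells are descriptions, and the 5 marker genes support nothing.

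The allogeneic library came from Balb/c recipients of a C57BL/6 heart and the syngeneic library from Balb/c recipients of a Balb/c heart, all aged 6 to 8 weeks. Immune cells of the lymph nodes were loaded on a droplet 3′ platform, and each graft type had 1 library. The labels do not give the number of mice behind a library or the time after grafting, and cells of donor and recipient were not separated here. With 1 library a group there is no replicate check, no test was made, and every interval below is an exact 95% interval of counting error only. Where 0 cells had a UMI, the limit given is 3 counts of the total; it limits cells with a UMI, not cells expressing the gene.

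Memory CD8 T cells are long-lived cells that have met antigen and keep a faster response than naive cells. Central memory cells keep the lymph node homing receptor CCR7, while effector memory cells lose it and carry more cytotoxic and tissue-homing genes. A memory-like state can also arise without foreign antigen ("virtual memory" in mice), with high Il2rb, Eomes and Cxcr3 and little integrin alpha 4 (Itga4). Ccl5 encodes the chemokine RANTES, Cxcr3 the receptor for interferon-induced chemokines, Eomes the T-box factor eomesodermin and Gzmm granzyme M. Samd3 is used here only as a marker.

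Members held a median of 5575.5 UMIs in the allogeneic and 6102 in the syngeneic library, against 4059 and 4826 in marker-low cells of the same libraries. Allogeneic members summed to 238585 UMIs and syngeneic members to 3291321, so low genes are far less precise in allogeneic members. The barcode lists begin at 150 UMIs in the allogeneic and 3447 UMIs in the syngeneic library. Haemoglobin genes took 0.328% of UMIs in allogeneic members and 0.00283% in syngeneic members, and the neutrophil genes S100a8, S100a9, Retnlg and Lcn2 summed to 1035 CPM (UMIs per 1000000 summed UMIs) and 5.47 CPM. Marker-low cells had 0.558% and 0.00381% haemoglobin and 1034 and 4.68 CPM of the neutrophil genes, and the part of either in the results was not tested. The libraries shared 26 barcodes among kept cells, which touched 2 members. Scrublet called 15 allogeneic and 0 syngeneic cells as doublets and none of them was a member, and in the syngeneic library the caller had not worked.

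The marker genes were carried unevenly. In the allogeneic library Ccl5 supplied 88.9% of the members' marker UMIs, and in the syngeneic library 68.0%. Its level was 2423 CPM in allogeneic members and 1076 CPM in syngeneic members. Cxcr3 stood at 126 and 175 CPM, Eomes at 88.0 and 129 CPM, Samd3 at 54.5 and 103 CPM, and Gzmm at 33.5 and 101 CPM in the allogeneic and syngeneic members. By these values allogeneic members were higher for Ccl5 and lower for the other 4 markers. For Cxcr3 and Eomes the intervals of the log2 ratio between libraries included 0 (-1.06 to 0.06 and -1.25 to 0.08). The 5 genes chose the members, so this describes what the rule admitted in each library.

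**Figure D1:**
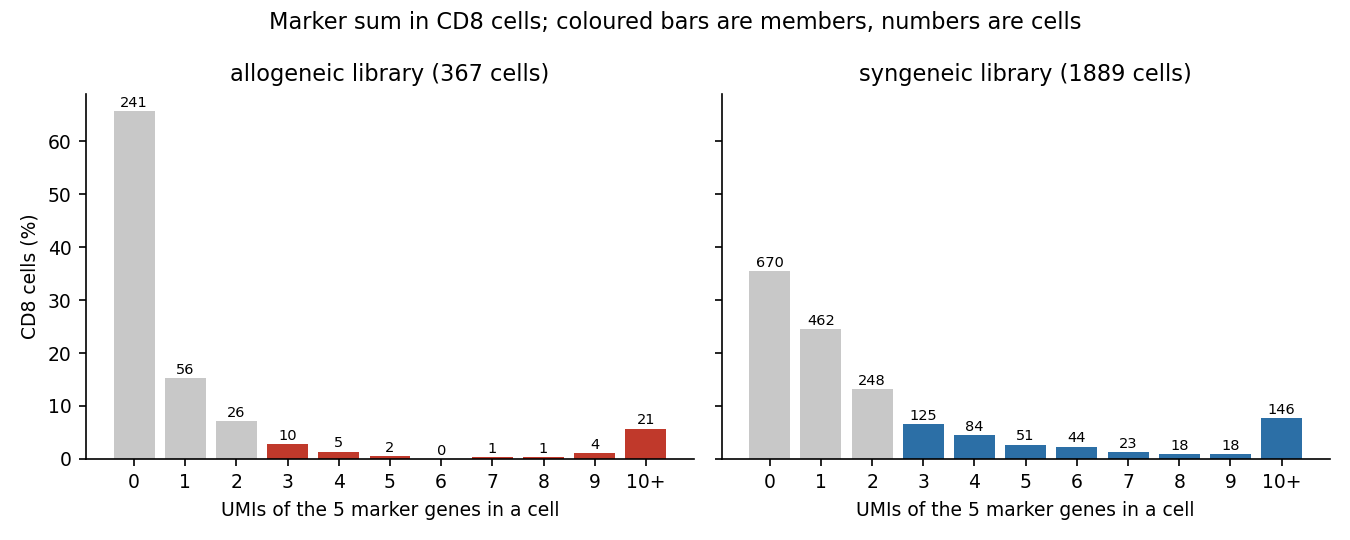
Share of CD8 cells with at most 1 UMI of Xcl1, Lag3 and Tyrobp (367 allogeneic, 1889 syngeneic), by their summed UMIs of the 5 marker genes, with cell numbers above the bars and members coloured. Cells without any marker UMI made up 65.7% in the allogeneic and 35.5% in the syngeneic library, and 21 and 146 cells reached a sum of 10 or more.

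Near the threshold, 10 allogeneic and 125 syngeneic members had a marker sum of exactly 3, and 26 allogeneic and 248 syngeneic cells fell just outside with a sum of 2. Just inside, Il2rb stood at 162 CPM in the allogeneic and 47.7 CPM in the syngeneic library, against 108 and 51.3 CPM just outside. Lef1, a factor of naive T cells, stood at 183 and 327 CPM just inside and 366 and 364 CPM just outside. The syngeneic cells on either side were close to each other for both genes. At the limit on Xcl1, Lag3 and Tyrobp, 6 allogeneic and 80 syngeneic members had a sum of 1, and 3 and 28 cells with enough marker UMIs fell outside with a sum of 2. Ccl5 stood at 1297 and 1337 CPM in those just inside, against 46.7 and 4099 CPM in those just outside.

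Members made up 11.6% of the 380 CD8-gated cells in the allogeneic library (interval 8.54 to 15.2%) and 25.7% of the 1982 in the syngeneic library (23.8 to 27.7%). Of all kept cells they were 2.09% and 6.40%. A gate on UMIs reads more members in deeper cells, so the 1662 allogeneic and 7957 syngeneic cells with at least 2000 UMIs were also thinned to that number and gated anew. The thinned share was 16 of 280 cells, 5.71% (3.30 to 9.11%), in the allogeneic library and 222 of 2112 cells, 10.5% (9.24 to 11.9%), in the syngeneic library. The allogeneic share was the lower in both readings. The thinned gate is looser on Cd4 and Cd79a, whose UMIs thinning can remove, and syngeneic CD8-gated cells rose from 1982 to 2112. Cells can also lose marker UMIs and fall among the marker-low cells, which rose from 1132 to 1697 in the syngeneic library. The limit on Xcl1, Lag3 and Tyrobp set aside 13 allogeneic and 93 syngeneic CD8-gated cells, of which 4 and 54 had a marker sum of at least 3.

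Members differed among themselves in which markers they carried. Of allogeneic members 15 (34.1%) carried only 1 of the 5 markers and 0 carried 4 or more, which allows a share of up to 6.82% by the limit of 3 counts. Of syngeneic members 47 (9.23%) carried only 1, while 70 carried 4 and 18 carried all 5. Ccl5 alone was the commonest allogeneic pattern, in 12 cells. In the syngeneic library the commonest was Ccl5 with Cxcr3, in 58 cells, and 135 members had no Ccl5 at all, against 5 allogeneic members without it.

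Ccl5 was seen in 39 of 44 allogeneic members (88.6%, interval 75.4 to 96.2%) and in 374 of 509 syngeneic members (73.5%, 69.4 to 77.3%). Among B cells, which gauge free RNA, Ccl5 had a UMI in 6.73% of allogeneic B cells (median 2253.5 UMIs) and in 21.1% of syngeneic B cells (median 4126 UMIs). After thinning of cells chosen at full depth, the shares were 79.5% and 50.7% of members in the allogeneic and syngeneic libraries. Those of B cells were 5.52% and 12.1%. At most 1 Ccl5 UMI was found in any allogeneic B cell and at most 11 in a syngeneic one, while 34 of 44 allogeneic and 235 of 509 syngeneic members had at least 3.

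Ccr7, the homing receptor of central memory cells, had a UMI in 29 of 44 allogeneic (65.9%) and 335 of 509 syngeneic members (65.8%), or 31.8% and 33.4% after thinning. B cells, which also use this receptor, showed it in 42.3% (allogeneic) and 32.6% (syngeneic) of their number, 38.6% and 17.3% after thinning. The Ccr7 share of thinned allogeneic members thus lay below that of B cells. Ly6c2, a surface protein that is higher on memory CD8 cells, was found in 95.5% of allogeneic members and 90.0% of syngeneic ones. After thinning it was found in 81.8% and 70.7%, against 5.52% and 12.1% of thinned B cells. Thinned marker-low CD8 cells showed it in 53.5% (allogeneic) and 62.5% (syngeneic).

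Of genes of differentiated effector cells, Klrg1, Gzmb and Gzmk had UMIs in few members. Klrg1, an inhibitory receptor of short-lived effector cells, had a UMI in 0 of 44 allogeneic members, which allows up to 6.82% of cells with a UMI, and in 1 of 509 syngeneic members. Gzmb, granzyme B, was seen in 1 allogeneic and 2 syngeneic members, and Gzmk, granzyme K, in 1 and 6. The Gzmb shares, 2.27% and 0.393%, lay within counting error of those of B cells, 1.44% and 0.319%. Gzma, granzyme A, named after its values were seen, had a UMI in 3 of 44 allogeneic members (6.82%) and 37 of 509 syngeneic members (7.27%), against 4.71% and 4.42% of marker-low cells. S1pr5 and Cx3cr1, a sphingosine receptor and a chemokine receptor of effector memory cells, had 0 UMIs in the members of both libraries. Itgae, the integrin of tissue-resident cells, was seen in 2 allogeneic (4.55%) and 33 syngeneic members (6.48%), against 0.481% and 0.639% of B cells. Marker-low CD8 cells showed Itgae in 10.4% (allogeneic) and 7.51% (syngeneic), above the members of both libraries.

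**Figure D2:**
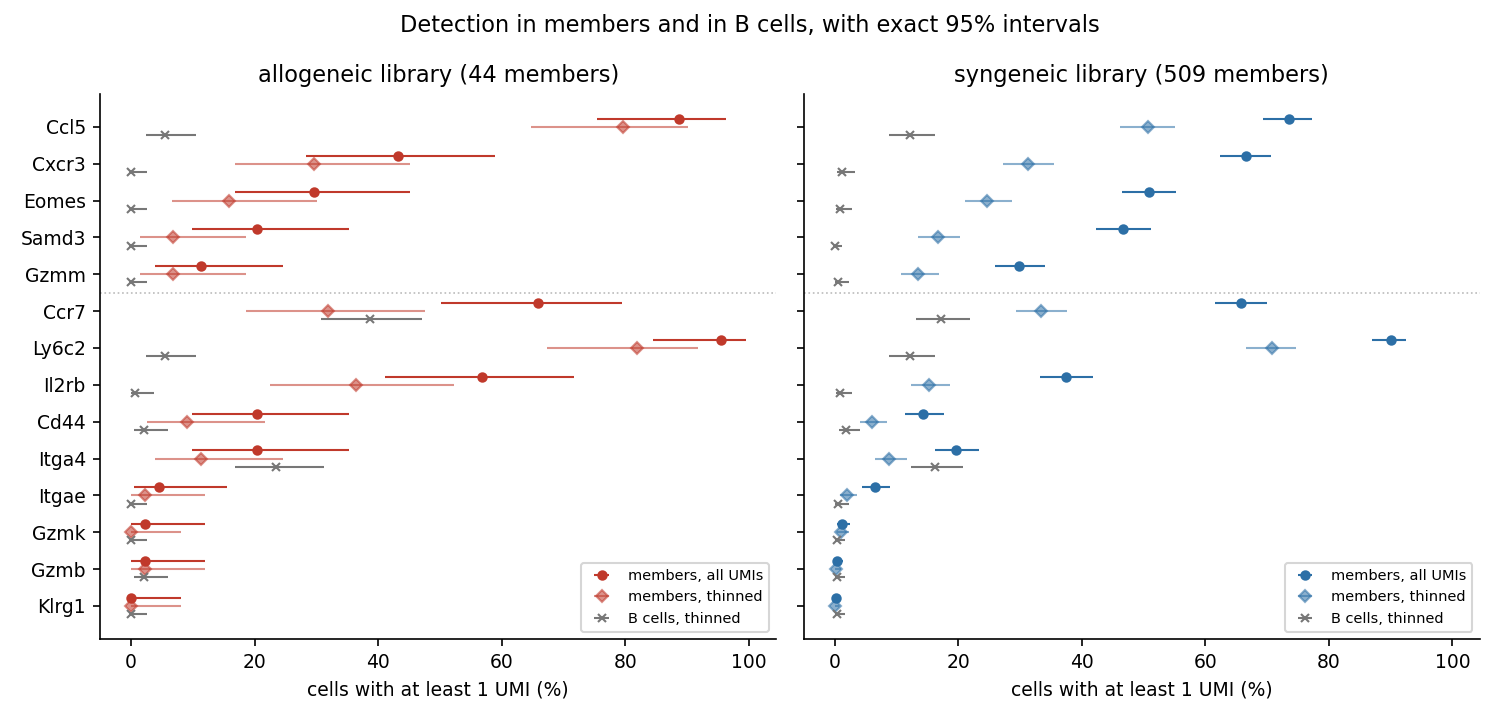
Percent of cells with at least 1 UMI of each gene in members with all UMIs (circles), in members thinned to 2000 UMIs (diamonds) and in thinned B cells (crosses), with exact 95% intervals, for the allogeneic (left) and syngeneic library (right). The genes above the dotted line chose the members, and Gzmk, Gzmb and Klrg1 lie near 0 in both libraries.

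Within the syngeneic members, 235 cells with at least 3 Ccl5 UMIs were set against 274 with fewer. S100a6, a small calcium-binding protein, stood at 125 CPM in the cells with more Ccl5 and 44.6 CPM in the others (log2 ratio 1.48, interval 1.10 to 1.88). Lgals1, galectin 1, stood at 359 and 194 CPM (0.88, 0.69 to 1.08), and Tbx21, the T-box factor T-bet, at 16.9 and 5.14 CPM (1.71, 0.57 to 2.99). Eomes went the other way, with 88.2 CPM in the cells with more Ccl5 and 164 CPM in the rest, though the rule itself ties the marker genes to each other. Ccr7 differed little, at 197 against 200.1 CPM. In the allogeneic library 34 members had at least 3 Ccl5 UMIs and 10 had fewer, which was too few for a comparison of most of these genes: S100a6 stood at 80.7 and 37.9 CPM with an interval of the log2 ratio of -1.01 to 4.26.

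Set against marker-low CD8 cells, few genes outside the rule differed by 2-fold in both libraries. Of 4948 such genes with at least 30 UMIs over both kinds of cell in each library, 8 were at least 2-fold higher in members of both libraries (0.162%) and 12 at least 2-fold lower in both (0.243%). The 8 were Il18rap, Zcchc18, St3gal6, Il2rb, Gng2, Itm2a, Ifitm10 and Gsto1. The 12 included Arrdc4, Sepp1, Igfbp4, Tspan32, Cnn3, Ramp3, Ldhb, Ifngr2, Gdpd3, Rgcc and Rasl11b. Most of these rest on few UMIs in allogeneic members. Ramp3 had 0 there, Ldhb and Ifngr2 1 each, Rgcc 3, and Sepp1, Tspan32, Cnn3, Gdpd3 and Rasl11b 2 each. Of the genes named, St3gal6, Cnn3, Gdpd3 and Rasl11b had allogeneic intervals that included 0. In the allogeneic library alone, 2.17% of 4975 genes were at least 2-fold higher and 8.4% at least 2-fold lower, and in the syngeneic library 1.02% and 1.45% of 8846. Over all genes the median log2 ratio of members over marker-low cells was -0.06 in each library.

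Il2rb, the receptor chain through which memory CD8 cells sense interleukin 2 and interleukin 15, was at least 2-fold higher in members of both libraries. It stood at 163 CPM in members and 40.7 CPM in marker-low cells of the allogeneic library (log2 ratio 2.01, interval 1.36 to 2.64), and at 83.6 and 32.4 CPM in those of the syngeneic library (1.37, 1.09 to 1.64). Il18rap, a chain of the interleukin 18 receptor, stood at 54.5 and 18.7 CPM in allogeneic members and marker-low cells and at 17.6 and 5.03 CPM in syngeneic ones. Both intervals of Il2rb lie clear of 0, and members were higher in both libraries. With the rule applied to cells thinned to 2000 UMIs, which left 16 allogeneic members, the Il2rb ratio was 0.66 (-1.70 to 2.34) in the allogeneic and 1.10 in the syngeneic library. In cells chosen at full depth and then thinned, Il2rb had a UMI in 36.4% of 44 allogeneic and 15.3% of 509 syngeneic members. Before thinning these shares were 56.8% and 37.5%. Thinned marker-low cells showed it in 7.09% and 5.92%, and thinned B cells in 0.690% and 0.958%.

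Of the cytokine receptor list 8 of 17 measured genes were higher in allogeneic members and 8 of 21 in syngeneic members, with medians of -0.14 and -0.05, where 44.7% of all genes were higher in members of the allogeneic and 39.7% of the syngeneic library. The syngeneic median lay above 0, at most 0.03, in 3 of 14 alternatives, other scalings among them. Il7r, the interleukin 7 receptor that naive and memory cells both need, was nearly level, at 516 and 569.8 CPM in allogeneic members and marker-low cells and 291 and 306 CPM in syngeneic ones. Il2rg, the chain shared by several interleukin receptors, stood at 394 and 359.8 CPM in the allogeneic library and 225 and 294 CPM in the syngeneic one.

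Itgb1, integrin beta 1, stood at 71.3 CPM in members and 34.2 CPM in marker-low cells of the allogeneic library and at 107 and 56.5 CPM in the syngeneic library (log2 ratios 1.06 and 0.92). Ahnak, a large scaffold protein, stood at 193 and 130.2 CPM and at 137 and 65.2 CPM (0.57 and 1.07). Itm2a, a membrane protein, gave log2 ratios of 1.12 and 1.13, and Gpr183, the oxysterol receptor that guides cells within lymphoid tissue, 1.13 and 0.67. Sh2d1a, the adaptor of the SLAM receptors, gave 0.88 and 0.59. The remaining genes named by the same rule, Ifitm10, Peak1, Ms4a4c, Amica1, Sla and Rnf138, had log2 ratios of 0.73 to 1.15 in the allogeneic library and 0.45 to 1.06 in the syngeneic library.

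**Figure D3:**
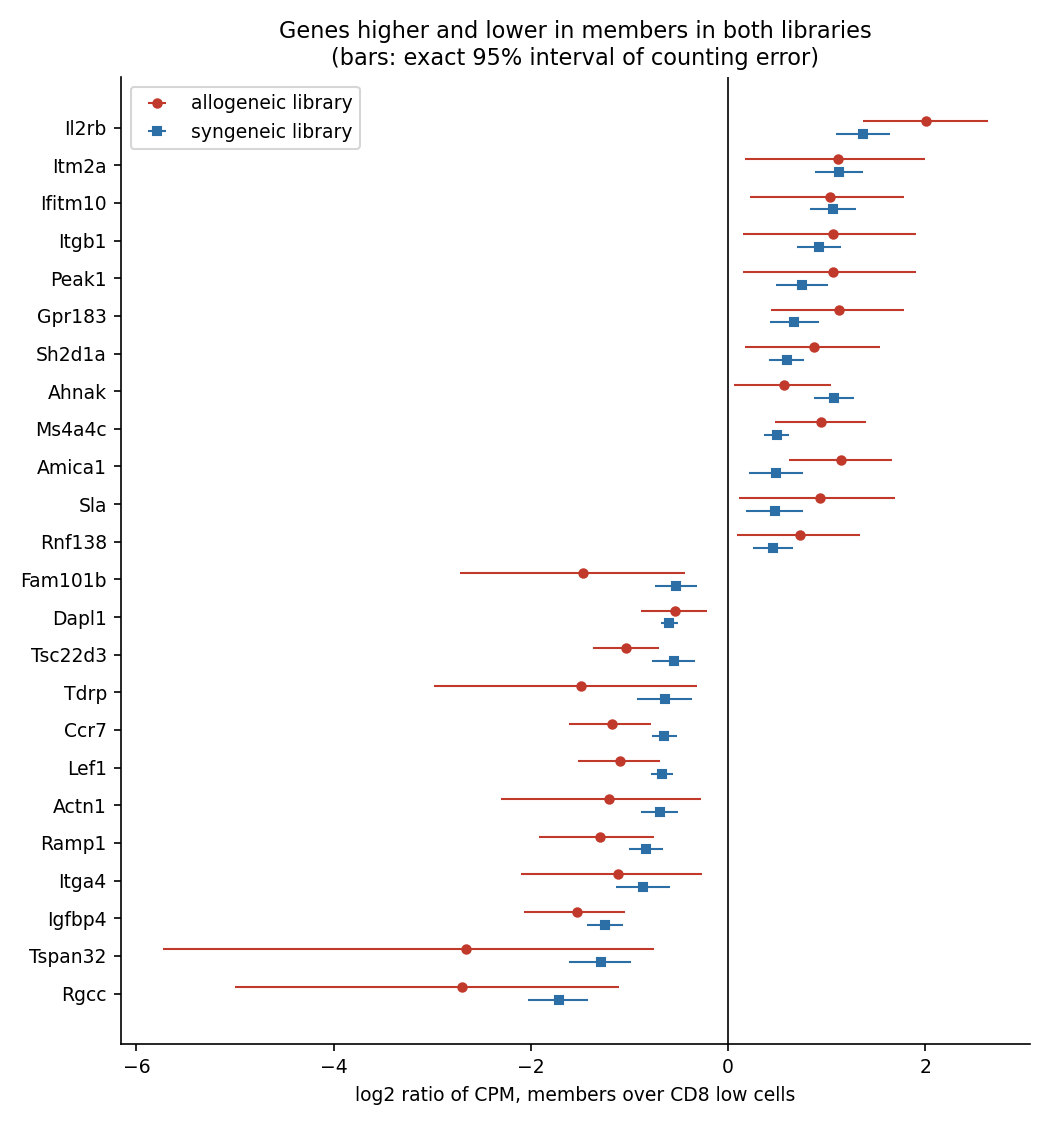
Log2 ratio of CPM in members over marker-low CD8 cells for the 12 genes highest and the 12 lowest in both libraries among genes with at least 50 UMIs and 50 CPM, allogeneic (circles) above syngeneic (squares), with exact 95% intervals of counting error. Il2rb leads the plotted higher genes at 2.01 and 1.37, and Rgcc has the lowest ratios at -2.69 and -1.72.

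Genes of naive T cells were lower in members. Of the naive T cell list 11 of 17 measured genes were lower in allogeneic members and 18 of 22 in syngeneic members, with medians of -0.58 and -0.60 beside -0.06 over all genes. Of all genes 55.3% and 60.3% were lower. Both medians stayed below 0 in all 14 alternative analyses. Igfbp4, a growth factor binding protein of naive CD8 cells, stood at 151 CPM in members and 438 CPM in marker-low cells of the allogeneic library (log2 ratio -1.54, interval -2.07 to -1.05) and at 95.1 and 225 CPM in the syngeneic library (-1.24, -1.43 to -1.06). Lef1 stood at 226 and 483 CPM in the allogeneic and at 278 and 442 CPM in the syngeneic library. Ccr7 stood at 226 and 513 CPM and at 199 and 311 CPM, so members carried less of it while most of them still showed it.

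Ly6c1, also on the naive list, was not lower. It stood at 838 CPM in members and 456 CPM in marker-low cells of the allogeneic library and at 513 and 469.7 CPM in the syngeneic library. Ly6c2 stood at 1069 and 573 CPM (0.90, 0.69 to 1.11) and at 922 and 853 CPM (0.11, 0.05 to 0.18). Ly6c1 and Ly6c2 are near-identical, so their reads may be split between them. Itga4, integrin alpha 4, was lower in members of both libraries, at 50.3 and 109 CPM in the allogeneic and 43.4 and 78.9 CPM in the syngeneic library (-1.12 and -0.86). With the rule applied to cells thinned to 2000 UMIs, which left 16 allogeneic members, these ratios were -0.17 (interval -2.49 to 1.46) and -0.25 (-0.87 to 0.31).

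At the lowest end stood Rgcc, a regulator of the cell cycle, with 12.6 CPM in members and 81.4 CPM in marker-low cells of the allogeneic library and 33.4 and 110.1 CPM in the syngeneic one. The allogeneic value rests on 3 UMIs in members. Ramp1, a co-receptor of the neuropeptide CGRP, stood at 117 and 290 CPM and at 109 and 194 CPM. Tsc22d3, a gene induced by glucocorticoids, stood at 348 and 711 CPM and at 73.2 and 107 CPM. Tspan32, Actn1, Tdrp, Dapl1 and Fam101b completed the 12 lowest, with log2 ratios of -0.54 to -2.66 in the allogeneic and -0.53 to -1.29 in the syngeneic library.

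Of the cytotoxic list 4 of 6 measured genes were higher in allogeneic members and 10 of 14 in syngeneic members, with medians of 0.25 and 0.28, where 44.7% and 39.7% of all genes tested were higher. Nkg7, a granule membrane protein, stood at 1304 CPM in members and 912 CPM in marker-low cells of the allogeneic library (log2 ratio 0.52, interval 0.33 to 0.70) and at 1084 and 811 CPM in the syngeneic library (0.42, 0.35 to 0.48). Ctsw, a cathepsin of killer cells, stood at 428 and 369 CPM and at 328 and 261 CPM.

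Receptors shared with natural killer cells gave 4 of 5 measured genes higher in allogeneic and 8 of 9 in syngeneic members. Of all genes tested 44.7% and 39.7% were higher. The medians of the list were 0.31 and 0.36. The syngeneic median was -0.14 when cells with UMIs of other lineages were left out. Klrd1, the CD94 chain, stood at 256 and 190.5 CPM in members and marker-low cells of the allogeneic library and 146 and 117 CPM of the syngeneic one. Klrk1, the activating receptor NKG2D, stood at 251 and 87.1 CPM in the allogeneic library (log2 ratio 1.53) and at 19.1 and 14.9 CPM in the syngeneic library (0.36, -0.13 to 0.85). Klrc1, which pairs with CD94, had 8 UMIs over 6 of 44 allogeneic members, against 2 UMIs in 297 marker-low cells, and 37 UMIs over 26 of 509 syngeneic members, against 6 UMIs in 1132 marker-low cells. Klrc1 and its close relative Klrc2 may share reads, and Klrc1 was named after its values were seen.

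Of the transcription factor list 6 of 16 measured genes were higher in allogeneic members and 8 of 26 in syngeneic members, with medians of -0.25 and -0.11, beside the same 44.7% and 39.7% of all genes tested. The allogeneic median turned above 0, to 0.08, in 1 of 14 alternatives. Tbx21 had 5 UMIs in allogeneic members and 4 in allogeneic marker-low cells, 21.0 and 3.26 CPM, and 35 and 8 UMIs in syngeneic ones, 10.6 and 1.39 CPM. Tcf7, the factor TCF1 of naive and memory cells, stood at 193 and 266 CPM in the allogeneic library and 219 and 207 CPM in the syngeneic one. Id2, which favours effector differentiation, stood at 134 and 192 CPM and at 99.0 and 199 CPM. Cd44, the classical surface marker of antigen-experienced T cells, stood at 46.1 and 12.2 CPM (log2 ratio 1.92, interval 0.65 to 3.14) and at 27.3 and 13.5 CPM (1.02, 0.56 to 1.47). Cd44 was a low transcript all the same, seen in 9 of 44 allogeneic and 73 of 509 syngeneic members, 9.09% and 6.09% after thinning, against 2.07% and 1.92% of thinned B cells. Tbx21 and Id2 were named after their values were seen.

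Set against its markers, the label held in part. Members had the higher Il2rb, Cd44, Tbx21 and Nkg7 and the lower Igfbp4, Lef1 and Ccr7 of memory cells. Few of them had a UMI of Klrg1 or Gzmb. Other genes of these lists went the other way. Of the transcription factor list 10 of 16 allogeneic and 18 of 26 syngeneic genes were lower, beside 55.3% and 60.3% of all genes. Ly6c1 of the naive list was higher in members. Tbx21 was named after its values were seen and had 5 UMIs in allogeneic members. Ccl5 supplied 88.9% of the marker UMIs in allogeneic members and 68.0% in syngeneic members. Neither Gzmm nor Samd3 had a UMI in 31 of 44 allogeneic members (70.5%) and in 192 syngeneic members (37.7%). The marker genes chose the members, so these values do not support the label.

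Interferons switch on genes through partly overlapping routes. Type I interferons act mainly through a complex that binds an element called ISRE, and interferon gamma mainly through factors that bind an element called GAS. The interferon lists separated the libraries in their own comparison of members with marker-low cells. Of the type I list 32 of 37 measured genes were higher in members of the allogeneic library (median log2 ratio 0.53), and 8 of 35 in members of the syngeneic library (median -0.12). Of the interferon gamma list 19 of 24 were higher in allogeneic members (median 0.30) and 0 of 25 in syngeneic members (median -0.43). Of all genes tested 44.7% were higher in members of the allogeneic and 39.7% of the syngeneic library. Of the 24 interferon gamma genes measured in both libraries 19 were higher in allogeneic and lower in syngeneic members, as were 23 of 35 type I genes, where 24.6% of all 4948 genes were.

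The contrast also showed in the spread over single cells. The type I list took a median of 0.857% of a cell's UMIs in allogeneic members (quartiles 0.531 and 1.15%) and 0.631% in allogeneic marker-low cells (0.421 and 0.906%). In the syngeneic library it took 0.206% in members (0.143 and 0.305%) and 0.233% in marker-low cells (0.157 and 0.347%). The interferon gamma list took 0.518% in members and 0.417% in marker-low cells of the allogeneic library, and 0.286% and 0.364% of the syngeneic one. The quartile ranges of members and marker-low cells overlapped in each library. The syngeneic median of the type I list turned to 0.03 in 1 of 14 alternatives, when cells with UMIs of other lineages were left out; the medians of the interferon gamma list kept their sides in all 14.

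**Figure D4:**
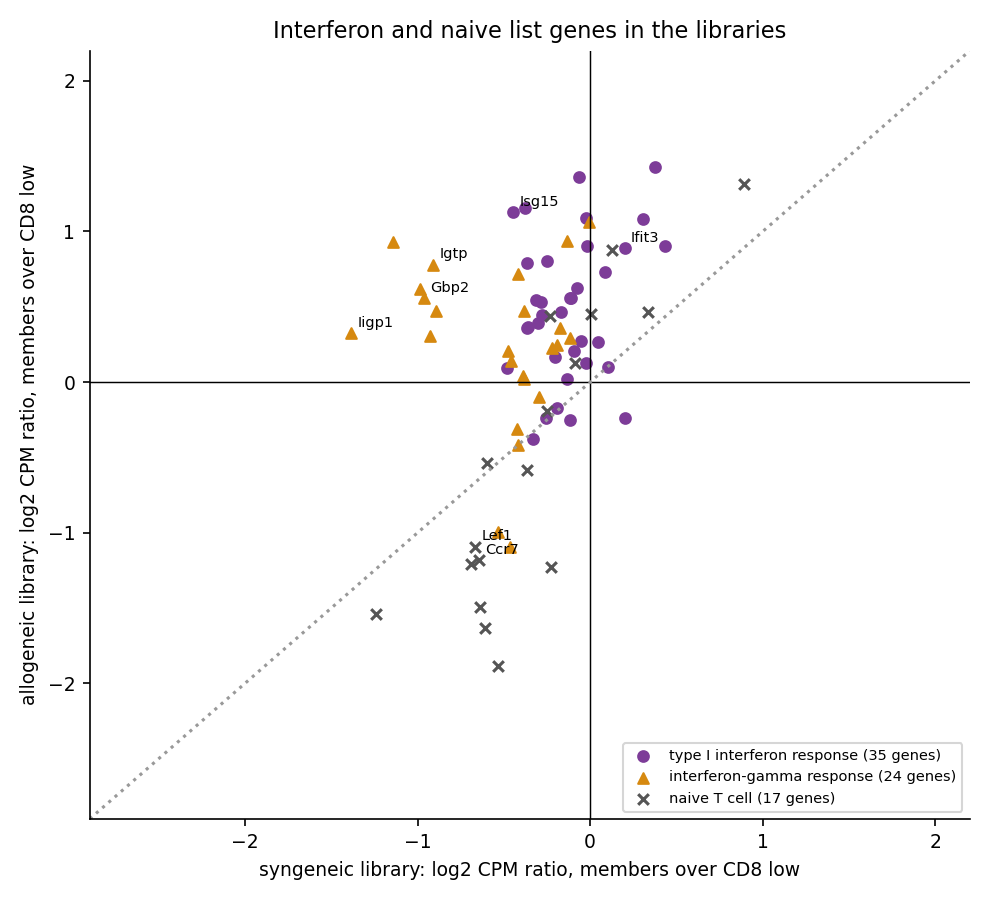
Log2 CPM ratio of members over marker-low CD8 cells in the allogeneic library (vertical) against the syngeneic library (horizontal), 1 point per gene of the type I interferon, interferon gamma and naive T cell lists with at least 30 UMIs in both libraries; the dotted line marks equal ratios. Of the 24 interferon gamma genes 19 lie at the upper left, higher in allogeneic and lower in syngeneic members, while most naive genes lie low in both libraries.

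Isg15, a ubiquitin-like protein made in response to interferon, was among the genes with the widest gap. It stood at 666 CPM in members and 304 CPM in marker-low cells of the allogeneic library (log2 ratio 1.13, interval 0.85 to 1.40) and at 74.4 and 101 CPM in the syngeneic library (-0.45, -0.67 to -0.23). The gap between the log2 ratios was 1.58 (1.23 to 1.92).

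Igtp, Gbp2 and Tgtp2, which encode interferon-induced GTPases, are named here because their intervals lay on opposite sides of 0. Igtp stood at 369 and 215 CPM in allogeneic members and marker-low cells (log2 ratio 0.78, interval 0.41 to 1.13) and at 95.7 and 180.0 CPM in syngeneic ones (-0.91, -1.10 to -0.73). Gbp2 stood at 218 and 148 CPM (0.56) and at 51.0 and 99.5 CPM (-0.96), and Tgtp2 at 222 and 145 CPM (0.62) and at 34.9 and 69.2 CPM (-0.98). In each of the 3 the allogeneic members were above and the syngeneic members below their marker-low cells. Other GTPases of the list did not all do so: the allogeneic intervals of Iigp1 (0.32, -0.26 to 0.87) and Tgtp1 (0.31, -0.21 to 0.79) included 0. Tgtp2 has the near-identical neighbour Tgtp1, and genes of the Gbp and Ifit families may also share reads.

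Across 2114 genes with at least 50 UMIs over both kinds of cell and 50 CPM in either, in each library, 24 had intervals that excluded 0 on opposite sides in the 2 libraries (1.14%), and 21 of them were higher in allogeneic and lower in syngeneic members (0.993%). Of the 4948 genes with at least 30 UMIs in each library, 24 stand on the interferon gamma list and 35 on the type I list. How many of those are among the 2114 was not counted. Of the 24 genes with opposite sides, 7 stand on the interferon gamma list and 4 on the type I list. Besides these, Ly6a (Sca-1) stood at 2263 and 1866 CPM in allogeneic members and marker-low cells (log2 ratio 0.28, interval 0.14 to 0.41) and at 167 and 338 CPM in syngeneic ones (-1.02, -1.16 to -0.88). The 3 that went the other way were Slamf6, Bzw2 and Eef1a1.

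Promoters from RefSeq on GRCm38.p6 are shown for Isg15, Gbp2 and Igtp, which had opposite sides in the libraries, and for Ifit3, which had one of the highest ratios between libraries; the 4 were chosen after their values were seen, to show the interferon element in their letters. Each run is the 250 bases before the transcription start, 5′ to 3′ on the gene's strand, with matches to a core of the ISRE in capitals: GAAA, any 2 bases and GAAA again, on either strand.
Isg15, chr4:156200819-156201068, minus strand: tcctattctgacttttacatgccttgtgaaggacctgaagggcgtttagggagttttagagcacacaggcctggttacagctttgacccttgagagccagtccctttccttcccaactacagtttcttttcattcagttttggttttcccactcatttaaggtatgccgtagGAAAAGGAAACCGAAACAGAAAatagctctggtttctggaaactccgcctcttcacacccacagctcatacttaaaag
Ifit3, chr19:34583279-34583528, plus strand: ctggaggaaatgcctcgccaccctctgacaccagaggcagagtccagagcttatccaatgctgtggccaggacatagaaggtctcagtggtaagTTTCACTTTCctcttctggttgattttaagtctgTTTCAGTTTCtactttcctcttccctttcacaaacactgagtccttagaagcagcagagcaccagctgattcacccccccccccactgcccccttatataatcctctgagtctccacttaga
Gbp2, chr3:142620413-142620662, plus strand: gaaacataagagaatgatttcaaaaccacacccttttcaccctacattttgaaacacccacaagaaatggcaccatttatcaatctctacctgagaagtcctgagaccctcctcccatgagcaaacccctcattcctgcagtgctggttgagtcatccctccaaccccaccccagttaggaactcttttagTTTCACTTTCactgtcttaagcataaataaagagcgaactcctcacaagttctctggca
Igtp, chr11:58199306-58199555, plus strand: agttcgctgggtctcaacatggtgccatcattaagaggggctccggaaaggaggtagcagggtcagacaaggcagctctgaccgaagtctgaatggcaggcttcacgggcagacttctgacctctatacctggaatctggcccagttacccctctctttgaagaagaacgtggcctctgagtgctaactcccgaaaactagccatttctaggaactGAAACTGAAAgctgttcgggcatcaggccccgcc

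Isg15 held 3 overlapping matches in 1 run, Ifit3 held 2 and Gbp2 and Igtp 1 each. Of the 25 genes on the interferon gamma list 18 had a promoter in the table, of which 10 held the ISRE core (55.6%). Of 35 type I genes with a promoter 20 held it (57.1%), against 936 of 27025 genes overall (3.46%). The GAS letters TTCNNNGAA, read on both strands, stood in 9 of the 18 interferon gamma genes, in 5 of the 35 type I genes (14.3%) and in 8.13% of all genes; matches of the motifs may overlap. Of the 24 genes with opposite sides 20 had a promoter, of which 7 held the ISRE core and 4 the GAS letters. A match is a description of the letters and does not show that a factor binds there.

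Between the libraries, allogeneic members carried far more interferon-response RNA than syngeneic members. Of 7070 genes with at least 30 member UMIs over both libraries, 632 were at least 2-fold higher in allogeneic members (8.94%) and 846 at least 2-fold lower (12%), with a median log2 ratio of -0.04. All 33 measured type I genes were higher, where 46.2% of all genes were, and 28 of them at least 2-fold, with a median log2 ratio of 2.24, a 4.72-fold difference. In marker-low cells 37 of 37 were higher with a median of 1.59, so the difference was not limited to members. Of 8515 genes in those cells 6.34% were at least 2-fold higher and 4.85% lower, and 50.7% and 49.3% were higher and lower at all.

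Ifit3, an antiviral protein, stood at 662 CPM in allogeneic and 42.2 CPM in syngeneic members (log2 ratio 3.97, interval 3.63 to 4.31), and at 357 and 36.8 CPM in allogeneic and syngeneic marker-low cells (3.28). Its near-identical copy Ifit3b stood at 268 and 15.2 CPM in members (4.14), and reads may be split between them. Slfn5 stood at 205 and 15.5 CPM in members (3.73), Isg20, a nuclease, at 214 and 18.8 CPM (3.50) and Ifi44 at 96.4 and 8.81 CPM (3.45). Ly6a stood at 2263 and 167 CPM in members (3.76, 3.59 to 3.94) and at 1866 and 338 CPM in marker-low cells (2.46). Klrk1 stood at 251 and 19.1 CPM in members (3.72, 3.18 to 4.25) and at 87.1 and 14.9 CPM in marker-low cells (2.55). For all of them the allogeneic members were the highest of the 4 CD8 groups.

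Cxcl10, a chemokine bound by CXCR3, had 38 UMIs in allogeneic members, over 8 of 44 cells, against 7 UMIs in 3 of 509 syngeneic members. A single allogeneic member held 44.7% of the 38 UMIs. Marker-low cells had 7 UMIs in the allogeneic and 0 in the syngeneic library, and B cells 5.72 and 0.677 CPM.

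The interferon gamma list gave 21 of 23 genes higher in allogeneic members (median log2 ratio 1.17), where 46.2% of all genes were. Marker-low cells gave 20 of 25 (median 0.65), where 50.7% of all genes were. The MHC class I list gave 13 of 13 higher with a median of 0.95 in members and 0.66 in marker-low cells. H2-D1 stood at 6731 CPM in allogeneic and 4321 CPM in syngeneic members and H2-K1 at 2079 and 1293 CPM. Class I genes are near-identical to each other and the recipients share a strain by their labels, yet how reads of Balb/c alleles fall on a reference from another strain was not tested.

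Glucocorticoid-induced genes were higher in allogeneic cells of both kinds. All 7 measured list genes were higher in members, where 46.2% of all genes were. Their median log2 ratio was 1.86, against 2.17 over 9 genes in marker-low cells. Tsc22d3 stood at 348 CPM in allogeneic and 73.2 CPM in syngeneic members and Txnip, an inhibitor of thioredoxin, at 649.7 and 166 CPM. Cd69, a gene of recent activation that also holds cells in lymph nodes, stood at 360.5 and 52.9 CPM in members (2.77, 2.38 to 3.15) and at 174 and 60.7 CPM in marker-low cells (1.52, 1.27 to 1.77).

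**Figure D5:**
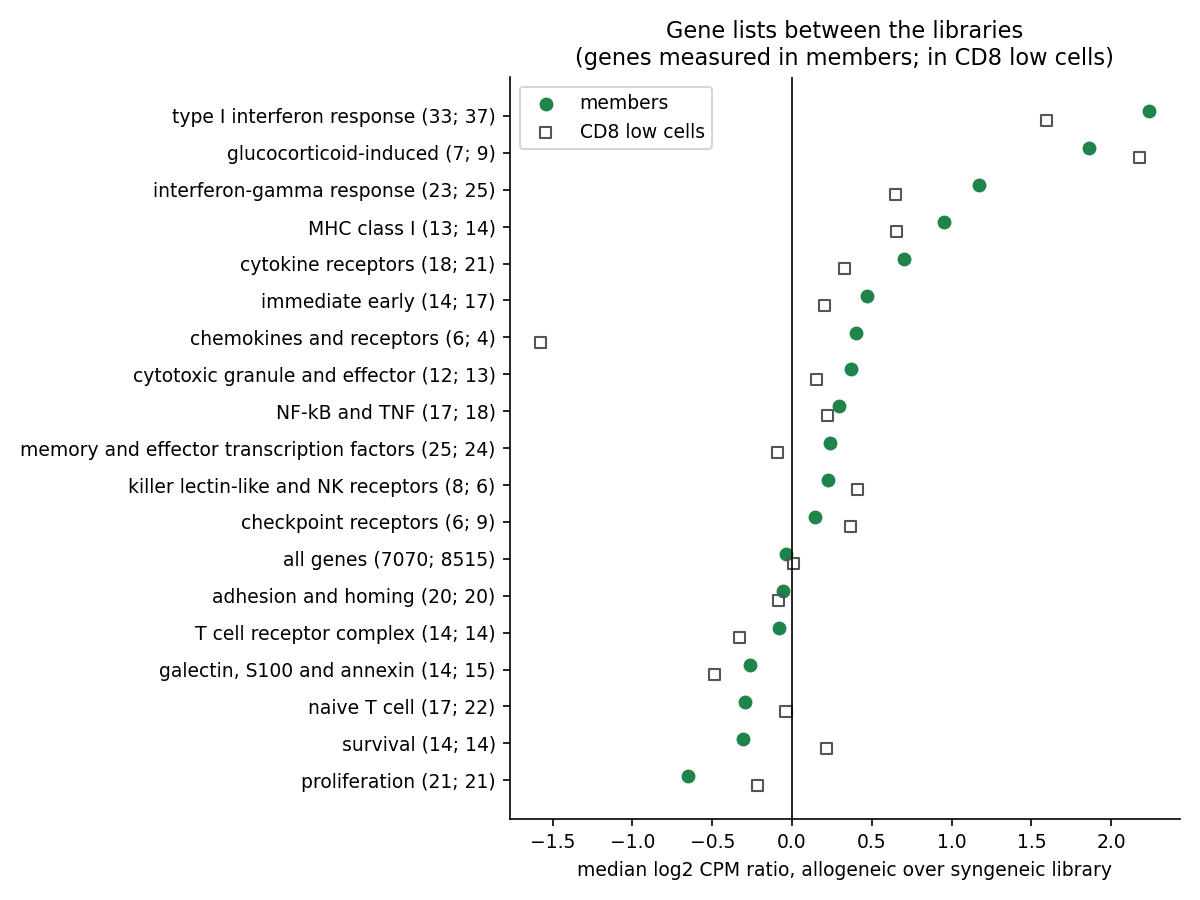
Median log2 CPM ratio, allogeneic over syngeneic library, for each gene list in members (filled circles) and marker-low CD8 cells (open squares), with the number of measured genes in brackets. The type I interferon list has the highest median in members, 2.24, above 1.59 in marker-low cells, and the proliferation list the lowest, -0.65.

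On the lower side stood genes of galectins, S100 proteins and proliferation. Lgals1 stood at 37.7 CPM in allogeneic and 271 CPM in syngeneic members (log2 ratio -2.85, interval -3.98 to -1.92) and at 27.7 and 190 CPM in marker-low cells (-2.78). S100a10, an annexin partner, stood at 155 and 386 CPM in members (-1.32) and at 164 and 445 CPM in marker-low cells (-1.44). The list of galectins, S100 proteins and annexins gave 12 of 14 genes lower in allogeneic members, where 53.8% of all genes were, with a median of -0.26. The ratios of Lgals1 and S100a10 were thus close in both kinds of CD8 cell.

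Proliferation genes gave 19 of 21 lower in allogeneic members, where 53.8% of all genes were. Their median was -0.65, against -0.21 in marker-low cells. The members' median was above 0, at most 0.10, in 2 of 13 alternatives. Within the syngeneic library 22 of 25 were higher in members than in marker-low cells (median 0.49), where 39.7% of all genes were. Within the allogeneic library 4 of 12 were higher (median -0.15), where 44.7% of all genes were. Each of these list medians changed sides in 2 of 14 alternatives. Stmn1, which destabilises microtubules, had 1 UMI in allogeneic members against 255 UMIs over 64 of 509 syngeneic members. Mki67, a marker of cycling cells, had 0 UMIs in allogeneic members, which allows up to 6.82% of cells with a UMI, and was seen in 21 of 509 syngeneic members (4.13%), against 32 of 1132 syngeneic marker-low cells (2.83%). One syngeneic member held 40.0% of the Hist1h2ap UMIs. Without the limit on Xcl1, Lag3 and Tyrobp the direction of 2 of these genes turned: Stmn1 then gave 0.32 and Hist1h2ap 2.62.

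The other genes with the lowest ratios rested on few molecules in allogeneic members: S100a4 on 2 UMIs, Oxct1, 0610010K14Rik, Icam2 and Ubl4a on 3 each, Rnaseh2c and Cd79b on 4, G0s2 on 5 and Chd3 on 13. Chd3, a chromatin remodeller, stood at 54.5 and 242 CPM (log2 ratio -2.15, interval -3.07 to -1.37). G0s2, an inhibitor of lipolysis, stood at 21.0 and 112 CPM in allogeneic and syngeneic members. At the highest end S100a8, S100a9, Hba-a1, Hba-a2 and Hbb-bs gave log2 ratios of 6.75 to 8.26, all genes of neutrophils or red cells that marker-low cells carried as well, at 7.17 to 8.01.

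The natural killer genes Ncr1, Klrb1c and Klra8 had 0 UMIs in the members of both libraries. The list of 6 summed to 41.9 CPM in allogeneic and 11.8 CPM in syngeneic members. It holds Tyrobp, which gave 4 of the 10 allogeneic and 26 of the 39 syngeneic UMIs. The rule limits Tyrobp, so these sums were in part held low by the rule. The B cell list summed to 16.8 and 88.7 CPM, with Ms4a1 at 0 in allogeneic members and Cd79a at 0 by the rule, and any gene of it was seen in 9.09% and 41.8% of members. The regulatory T cell list summed to 25.1 and 35.9 CPM, and Foxp3 had 2 UMIs in allogeneic and 13 in syngeneic members. The myeloid list summed to 143 and 136 CPM and the plasma cell list to 33.5 and 31.6 CPM, with Csf1r and C1qa at 0 in allogeneic and C1qa at 0 in syngeneic members. The list for plasmacytoid dendritic cells summed to 524 and 182 CPM, with Siglech and Ccr9 at 0 in allogeneic members, so that Bst2, which interferon also induces, and Irf8 made up all of it there. The part of any of these in the results was not tested. Gamma-delta T cell markers were not analysed here.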

How the data were processed

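The authors deposited 1 matrix of unnormalised UMI counts for each of the 2 libraries, genes by barcodes. Per the labels' protocols, libraries were made with Chromium single-cell 3′ v3 reagents. The submitters' processing notes name Cell Ranger 2.2.0, STAR, Seurat 2.3.4 and mm10, with no role or order. The selection of barcodes, and any use of strand in counting, were not given in the sources used here.

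UMIs were summed per symbol (27998 entries, 27933 symbols), and a barcode was kept if it had 200 genes or more and no more than 10% of mitochondrial UMIs (Python 3.11.15, numpy 2.4.6, scipy 1.17.1, pandas 2.3.3). UMIs were then summed over members, marker-low CD8 cells and B cells (at least 2 Cd79a UMIs, no CD3, CD8 or Cd4 UMI) of each library and given as CPM. Ratios have exact conditional binomial intervals and shares Clopper-Pearson intervals, at 95%; a count of 0 was set to 3 UMIs in a ratio, and to a ratio of no more than 1 where that would turn its direction. Doublets were scored with Scrublet (scanpy 1.11.5). The 14 alternatives covered cell filters, depth, the rule's limits, doublets, other lineages, scaling and UMI minimums.

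Named genes were, outside mitochondrial, ribosomal, receptor segment and rule genes, those with at least 50 UMIs and 50 CPM and an interval excluding 0: the 12 highest and 12 lowest by the smaller ratio of the libraries, the 12 highest and 12 lowest between libraries, and up to 4 of the most abundant of each list. Genes with opposite sides in the libraries, those at least 2-fold in both, Cd69, Klrc1, Tbx21, Id2, Tcf7, Cxcl10, S1pr5, Cx3cr1, Foxp3, Ncr1, Mki67, S100a6 and Lgals1 within members were also named, some after their values were seen. The members, the 18 lists (384 genes, 375 with a symbol in the files) and the alternatives were chosen with earlier results of these data known. Some genes of the lists and the rule for named genes are not reported here.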

Additional observations from a re-analysis of the deposited data

Results flagged for a closer look

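In 24 genes the members lay on one side of the marker-low CD8 cells among allogeneic cells and on the other among syngeneic cells, with both counting intervals excluding 0. With 1 library of each graft type the difference was not tested over replicates. The values below are the log2 ratio of members over marker-low cells in the allogeneic library minus that in the syngeneic library.

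Among interferon gamma response genes the gap was 1.69 for Igtp, 1.60 for Tgtp2, 1.52 for Gbp2, 1.13 for Gbp7, 0.857 for Ifi47, 0.537 for Psmb8 and 0.410 for Psme1, the last 2 being parts of the immunoproteasome and its activator. Among type I response genes it was 1.58 for Isg15, 0.728 for Zbp1, 0.726 for Slfn1 and 0.695 for Ifit1. For genes outside both lists it was 1.30 for Ly6a, 1.16 for Daxx, 1.15 for Pyhin1, 1.10 for Mrpl24, 1.01 for Rab18, 0.777 for 9930111J21Rik2, 0.695 for Slfn2, 0.583 for Ptprc, 0.573 for Psma2 and 0.540 for Mndal. It was below 0 for Bzw2, at -1.23, Slamf6, at -1.08, and Eef1a1, at -0.178.

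Among lists whose medians lay on opposite sides by at least 0.25 in each library, the gap was 0.724 for the interferon gamma response and 0.731 for checkpoint receptors. Other lists had medians on opposite sides closer to 0 in at least 1 library: the type I response (0.53 allogeneic, -0.12 syngeneic), proliferation (-0.15 and 0.49), NF-kB and TNF genes (0.18 and -0.08), the T cell receptor complex (-0.02 and 0.02) and survival genes (-0.02 and 0.11). The checkpoint list rests on 3 allogeneic and 10 syngeneic measured genes, and its allogeneic median turned below 0 in 2 of 14 alternatives.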

How the results depend on the processing

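No paired analysis was possible because each graft type has 1 library, and for the same reason no library could be left out. The share of members among CD8-gated cells was lower in the allogeneic library under all alternatives run on it, with a ratio of shares of 0.445 to 0.551 beside 0.451. The shares themselves were 5.71% and 10.5% in cells thinned to 2000 UMIs and 18.4% and 38.2% with a marker sum of at least 2. The syngeneic share was 19.4% with a sum of at least 4, 28.4% with no limit on Xcl1, Lag3 and Tyrobp, and 21.9% without cells holding UMIs of other lineages. The 8 genes higher and 12 lower in members of both libraries became 3 and 6 in thinned cells, 3 and 7 without other lineages, 21 and 30 at a minimum of 10 UMIs, 0 and 3 at a minimum of 100 UMIs, and 1 and 1 against marker-low cells matched on total UMIs, where 1863 genes were tested. The higher count was 5 in cells with at least 3447 UMIs and 4 with a marker sum of at least 2. Between libraries the counts of 632 higher and 846 lower became 159 and 347 in thinned cells, 245 and 420 without other lineages and 198 and 262 at a minimum of 100 UMIs, and 1074 were higher at a minimum of 10. The number of genes tested changed with each of these settings. Without the limit on Xcl1, Lag3 and Tyrobp the log2 ratios of Hist1h2ap and Stmn1 turned to 2.62 and 0.32; the cause was not tested. In cells thinned to 2000 UMIs the allogeneic log2 ratios of members over marker-low cells were 0.66 for Il2rb, 0.49 for Amica1, -0.11 for Actn1, -0.17 for Itga4, -1.02 for Tspan32, -1.45 for Rgcc, -2.44 for Ccr7 and -3.26 for Ramp1. For named genes, 607 values of members against marker-low cells moved by less than their counting error and 40 by more, as did 270 and 20 values between libraries. List medians have no counting interval here, and 717 of their values were classed as unmoved and 17 as moved. Of the shares, their ratio and the gene counts, 52 values were classed as unmoved and 26 as moved. Depth limits allogeneic members most, since 1 UMI there is worth 4.19 CPM.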
